A study of Mus musculus with 12 samples.

Results

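The growth hormone axis of the liver was followed through 10 genes: the receptor gene Ghr, its kinase gene Jak2, the STAT genes Stat5a and Stat5b, the feedback inhibitor genes Socs2 and Cish, the hormone gene Igf1, and the IGF carrier genes Igfals, Igfbp1 and Igfbp2. They were taken by symbol from a table of 24532 genes, and all 10 were among the 13379 genes that passed the filter on low counts. The data are total RNA sequencing of whole liver from 12 mice aged 20 wk on the mixed strain C57BL/6x129S6/SvEv. There were 4 libraries of the genotype Het, which served as control, 4 of the genotype Atp7b-/- (KO), and 4 of Atp7b-/- mice that received an LXR agonist in their feed (KO_drug; LXR are the liver X receptors). Atp7b encodes a copper-transporting ATPase of hepatocytes, and its loss is the cause of Wilson disease. The labels are silent on sex, litter, time of day and feeding state, on which agonist was fed and how much for how long, and on the Atp7b sequence removed by the knockout. Each library was taken as 1 animal, so the p-values below measure the spread between these libraries.

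In the liver, growth hormone binds the receptor encoded by Ghr, the receptor-bound kinase JAK2 phosphorylates STAT5, and STAT5 enters the nucleus and turns on Igf1, Igfals, Socs2 and Cish. SOCS2 and CIS, the products of Socs2 and Cish, damp the receptor's signal. IGF1 leaves the liver and circulates bound to carriers, of which IGFBP1 and IGFBP2 form small complexes and the acid-labile subunit, encoded by Igfals, joins IGFBP3 or IGFBP5 in a large, long-lived complex. Growth hormone is secreted in pulses in male mice and more evenly in females, and STAT5b carries this pattern into the sex differences of liver genes.

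Promoter sequence from RefSeq (build GRCm38.p6; each window runs from 250 bases before to 50 bases after a transcript start, whose first base is position 1) was found for 9 of the 10 genes, in 15 windows. Socs2 had no window, so it was not searched for any motif. The STAT motif TTCNNNGAA, which reads the same on both strands, was present in 3 of the 15 windows, 1 of Cish and 2 of Igfals, and in 8.3% of all 32851 windows. Its form with a wider spacer, TTCNNNNGAA, was in none of the 15 and in 7.0% of all. The forkhead-type motif CAAAACA, searched on both strands as were all motifs, lay in the Igfbp1 window and in 6.3% of all windows. The forkhead motif GTAAACA lay in 1 of the 15 windows and in 3.6% of all windows. That match was in Igfals, as TGTTTAC at position -242 of the stretch printed below, where it is not marked. The GC box GGGCGG, added after the first motifs had been seen, was in 8 of the 15 windows and in 35.7% of all windows, and in 59.6% of the windows of tested genes. The hexamer AGGTCA, part of the sites of many nuclear receptors, LXR among them, was in 6 of the 15 windows (of Igf1, Igfals, Stat5a and Stat5b), against 16.3% of all windows and 13.1% of the windows of tested genes. Windows of 1 gene are not independent of each other. A match is a description of the letters and not a binding site. The stretches below are shown because Cish and Igfals hold the STAT motif and because Igfbp1 and Igfbp2 are the carrier genes set against each other below. All lie on the plus strand. Capitals mark TTCNNNGAA in Cish and Igfals, CAAAACA in Igfbp1 and GGGCGG in Igfbp2.
The stretches are chr9:107296649-107296678 for Cish, chr17:24877981-24878220 for Igfals, chr11:7197537-7197776 for Igfbp1 and chr1:72824230-72824469 for Igfbp2; they span positions -10 to 20 in Cish and -250 to -11 in the others.
Cish: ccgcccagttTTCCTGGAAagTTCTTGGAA
Igfals: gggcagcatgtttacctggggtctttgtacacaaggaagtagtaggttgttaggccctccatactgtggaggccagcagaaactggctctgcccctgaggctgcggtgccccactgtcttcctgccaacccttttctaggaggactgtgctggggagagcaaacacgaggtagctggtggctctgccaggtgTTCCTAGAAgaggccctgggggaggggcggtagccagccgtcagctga
Igfbp1: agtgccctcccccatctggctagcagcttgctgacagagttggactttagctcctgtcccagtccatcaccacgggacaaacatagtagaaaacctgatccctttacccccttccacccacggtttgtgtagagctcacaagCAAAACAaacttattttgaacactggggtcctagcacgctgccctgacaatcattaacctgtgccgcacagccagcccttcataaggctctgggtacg
Igfbp2: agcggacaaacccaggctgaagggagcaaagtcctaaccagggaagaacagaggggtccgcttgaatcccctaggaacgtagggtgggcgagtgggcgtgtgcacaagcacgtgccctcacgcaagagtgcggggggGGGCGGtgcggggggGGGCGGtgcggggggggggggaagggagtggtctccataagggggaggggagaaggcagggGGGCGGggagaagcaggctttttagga
In Cish the motif occurred at positions 1 and 12, in the printed Igfals stretch at position -58, and CAAAACA in Igfbp1 at position -108. GGGCGG occurred at positions -113, -98 and -37 of Igfbp2. The printed Igfals stretch precedes 1 of the 3 listed starts of the gene, and another Igfals window held TTCTCAGAA at position -236.

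Library totals ranged from 16535938 to 28329751 counts, and Atp7b itself was 9.90 to 16.2 in Het, 1.68 to 2.71 in KO and 1.27 to 3.49 in KO_drug in CPM, which is counts per 1e6 counts on library sizes scaled by TMM. The female-specific RNA Xist was detected at 81.8 and 17.8 CPM in KO 5 and KO 6, respectively, with 0.425 CPM as the highest value elsewhere, and the Y-linked Ddx3y at 0.379 CPM in KO 5 against 64.4 to 111 CPM in the other libraries. KO 6 thus held both, with Ddx3y at 64.4 CPM. Counts were therefore also computed without KO 5 and KO 6. Below they are given for the members and for the gene lists tied to sex, but not for every comparison or for the other lists. Hepatocyte markers were lower in KO (11 of 15 tested fell and 0 rose; 16 were listed), with a summed level of 91020 to 159100 in Het, 46060 to 81290 in KO and 84790 to 104400 CPM in KO_drug, and none was at 0 in any library. Macrophage and Kupffer cell markers were higher in KO (14 of 16 rose and 0 fell), with sums of 499.9 to 680.5 CPM, 1231 to 2704 CPM and 566.7 to 1272 CPM in the same order, and Trem2 and Gpnmb were at 0 in at least 1 library of Het and of KO_drug. Of all tested genes 17.7% were called lower and 23.0% higher in KO vs Het at an adjusted p under 0.05. With library sizes scaled by total counts these shares were 3.44% and 51.6%, and the marker counts here are with TMM scaling only. In whole tissue, fewer cells of a type and less RNA per cell cannot be told apart. Relative to TMM, scaling by total counts moved the median log2 change of all genes by 0.52 (KO vs Het), -0.34 (KO_drug vs KO) and 0.18 (KO_drug vs Het).

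The transcripts of the receptor, of STAT5b, of the hormone and of 1 carrier were lower in KO than in Het. In KO vs Het, 4 of the 10 genes fell (Ghr, Stat5b, Igf1 and Igfbp2) and 0 rose at an adjusted p under 0.05 (edgeR quasi-likelihood test, Benjamini-Hochberg over 13379 genes), against 40.7% of all tested genes called in either direction, 17.7% lower and 23.0% higher. The 4 genes were also those whose KO and Het libraries did not overlap, which held for 39.3% of all genes. The share called was thus near the background, and the median change of the 10 genes was -0.76 against 0.02 over all genes on the log2 scale. With total-count scaling, 2 fell (Ghr and Igfbp2) and 3 rose (Jak2, Stat5a and Igfbp1), where 51.6% of all genes were called higher and 3.44% lower. Without KO 5 and KO 6, 5 fell and 0 rose, where 19.5% of all genes were called higher and 15.6% lower.

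In KO_drug vs KO, 2 of the 10 genes rose (Ghr and Igfbp2) and 0 fell, against 19.8% of all tested genes called, 8.80% higher and 11.0% lower. In KO_drug vs Het, 4 fell (Ghr, Stat5b, Igf1 and Igfals) and 0 rose, against 21.4% of all tested genes called, 8.45% lower and 13.0% higher. Igfbp2 was the single member whose KO and KO_drug libraries did not overlap, which held for 23.9% of all genes. The comparisons share libraries (each group enters 2 of the 3), so their values stand side by side and are not independent of each other. Without KO 5 and KO 6, 2 rose and 1 fell (Jak2) in KO_drug vs KO, and 4 fell in KO_drug vs Het. With total-count scaling 1 member rose and 3 fell (Jak2, Stat5a and Stat5b) in KO_drug vs KO, where 2.65% of all genes were called higher and 29.2% lower. Under the same scaling 0 rose and 4 fell in KO_drug vs Het, where 18.2% were called higher and 3.73% lower.

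**Figure D1:**
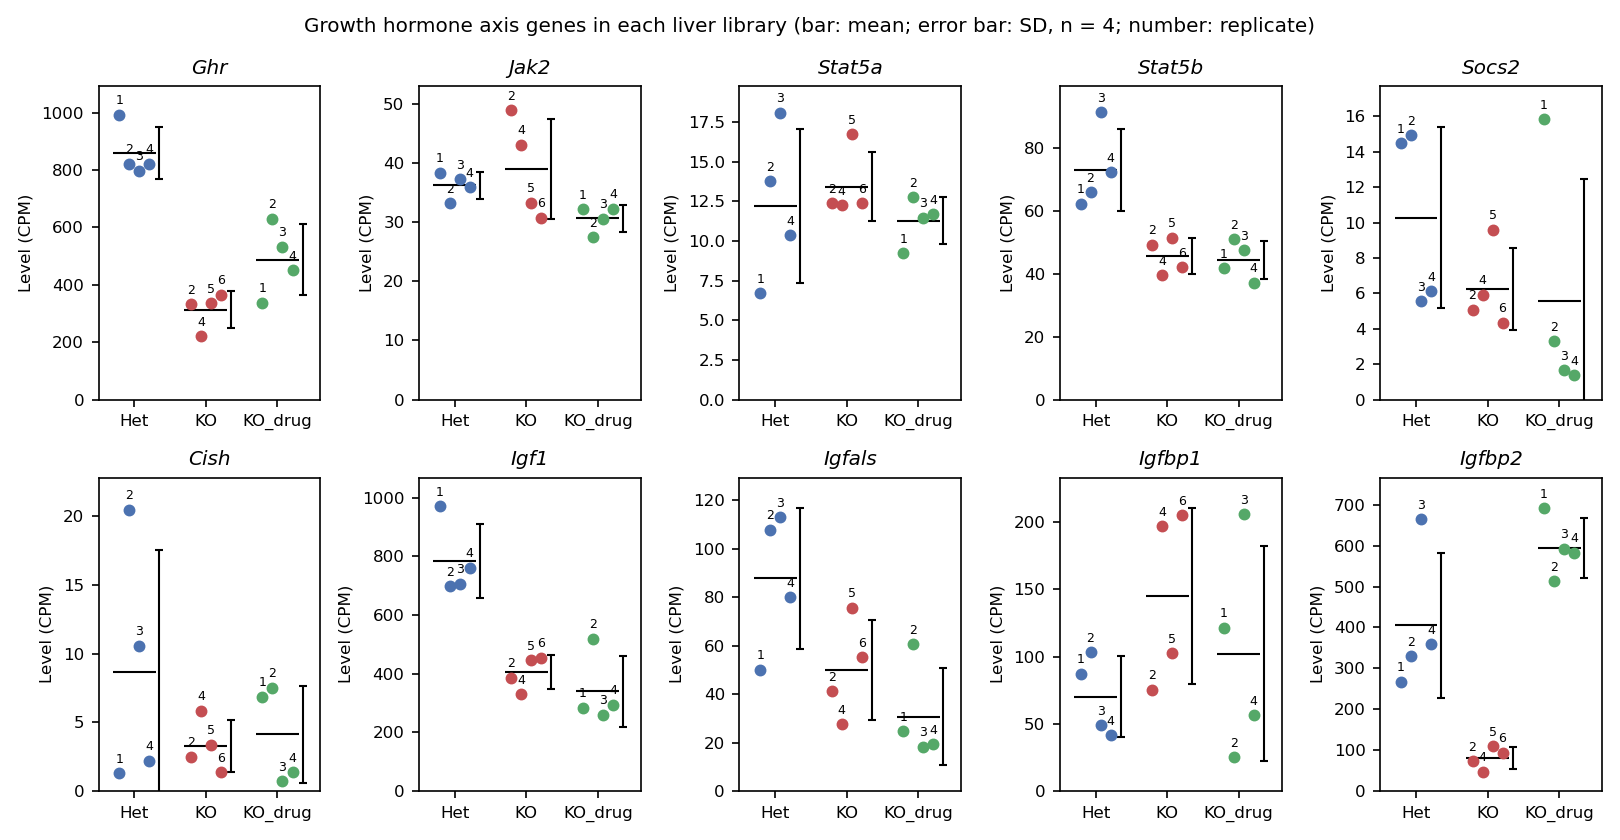
Level in CPM (y axis, from 0) of each of the 10 genes in the 4 Het, 4 KO and 4 KO_drug libraries; each point is a library with its replicate number, the bar is the mean and the error bar the SD (cut at 0 where it would pass below it). Ghr, Stat5b, Igf1 and Igfbp2 are lower in all KO than in all Het libraries, and Igfbp2 is higher in all KO_drug than in all KO libraries.

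Ghr encodes the growth hormone receptor and, by alternative splicing in mice, its soluble binding protein, which counts per gene do not separate (chr15:3317755-3583352, minus strand, mm10). Its level was 992, 823, 798 and 822 CPM in Het 1 to 4, 332, 220.0, 336 and 365 CPM in KO 2, 4, 5 and 6, and 337, 630, 532 and 450.2 CPM in KO_drug 1 to 4. Every KO library and every KO_drug library lay below every Het library, and KO_drug 1 lay among the KO libraries. Ghr fell 2.74-fold in KO vs Het (log2 -1.45, SE 0.21, adjusted p = 0.000171). KO_drug was 1.76-fold lower than Het (log2 -0.82, SE 0.20, adjusted p = 0.0118). Against KO it was 1.56-fold higher (log2 0.64, SE 0.20, 95% interval 0.20 to 1.08, adjusted p = 0.0423). The fall in KO was called under every alternative run, from -1.72 to -0.82 on the log2 scale. The rise in KO_drug over KO was not stable: it was 0.30 (adjusted p = 0.269) with total-count scaling and lost its call without KO 2, KO 4 or KO 5, without KO_drug 2, 3 or 4, and without Het 2, 3 or 4 (adjusted p 0.0522 to 0.12).

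Jak2, the gene of the receptor's tyrosine kinase (chr19:29251803-29313095), did not pass the test in any of the 3 comparisons. It stood at 38.4, 33.2, 37.3 and 36.0 in Het, 49.0, 43.1, 33.3 and 30.8 in KO and 32.2, 27.5, 30.6 and 32.3 CPM in KO_drug, with the replicates in the order given for Ghr, as below. KO 2 and KO 4 were above all Het libraries and KO 6 was below them. The change was 0.11 in KO vs Het (log2, SE 0.14, 95% interval -0.19 to 0.41, adjusted p = 0.564) and -0.35 in KO_drug vs KO (95% interval -0.65 to -0.05, adjusted p = 0.0981). With total-count scaling it was called in both, at 0.63 (adjusted p = 0.00841) and -0.69 (adjusted p = 0.011). The difference between KO_drug and KO was also called without KO 5 and KO 6 (-0.55, adjusted p = 0.0118) and without KO 6 (-0.45, adjusted p = 0.04). All 4 KO_drug libraries were below all 4 Het libraries, at -0.24 (adjusted p = 0.257; exact two-sided permutation p = 0.0286, the smallest that 4 against 4 can give; groups that do not overlap made up 24.6% of all genes here).

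Stat5b, the STAT5 gene that dominates in liver, fell in KO, while Stat5a did not pass the test. The pair are neighbours on chromosome 11 (Stat5b at chr11:100780731-100859004 and Stat5a at chr11:100859351-100885169), with 346 bases between them. Stat5b stood at 62.4, 66.0, 91.5 and 72.3 in Het, 49.4, 39.5, 51.6 and 42.1 in KO and 41.9, 51.0, 47.6 and 37.2 CPM in KO_drug. Every library of both knockout groups was below every Het library, while KO and KO_drug overlapped. It fell 1.60-fold in KO vs Het (log2 -0.68, SE 0.15, adjusted p = 0.00281) and 1.65-fold in KO_drug vs Het (log2 -0.72, SE 0.15, adjusted p = 0.00383). With total-count scaling the fall in KO shrank to -0.15 (adjusted p = 0.386), while that in KO_drug vs Het was called under every alternative. KO_drug and KO differed by -0.04 (95% interval -0.36 to 0.28, adjusted p = 0.875). With total-count scaling that difference was -0.39 (adjusted p = 0.0492).

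Stat5a stood at 6.70, 13.8, 18.1 and 10.4 in Het, 12.4, 12.3, 16.7 and 12.4 in KO and 9.24, 12.8, 11.5 and 11.7 CPM in KO_drug. The Het libraries spanned the range of both other groups. The change in KO vs Het was 0.14 (log2, 95% interval -0.39 to 0.66, adjusted p = 0.681). With total-count scaling it was called, at 0.70 (adjusted p = 0.0142; 0.73 and adjusted p = 0.0105 on FPKM + 0.1), and so was the difference of KO_drug from KO, at -0.60 (adjusted p = 0.0479; -0.25 with TMM, adjusted p = 0.5). Per length, the share of Stat5a in the summed FPKM of both genes was 12.4 to 21.2% in Het, 24.5 to 29.4% in KO and 22.2 to 29.2% in KO_drug. This share does not depend on the scaling of libraries, and all 8 knockout libraries exceeded all 4 Het libraries. It was chosen after the values had been seen and is given with no test, as are the other ratios below.

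**Figure D2:**
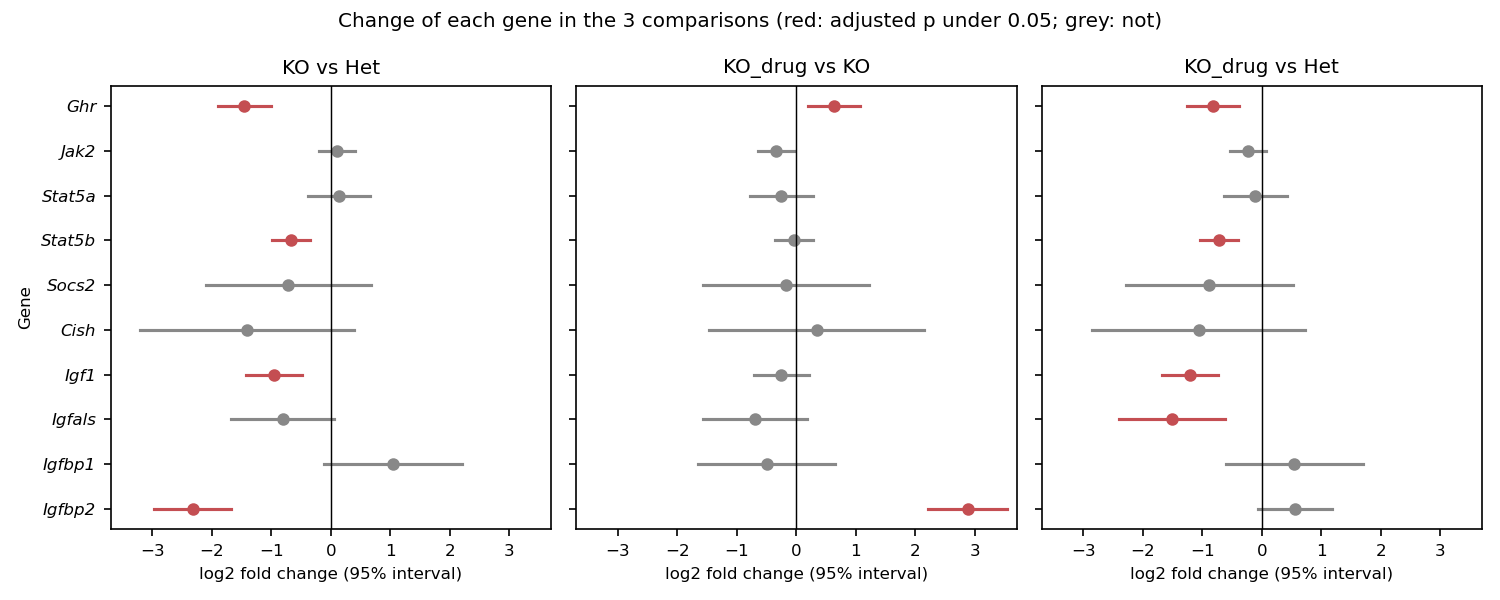
log2 fold change (x axis) of each of the 10 genes (y axis) in KO vs Het, KO_drug vs KO and KO_drug vs Het; points are edgeR estimates, lines their 95% intervals, and red marks an adjusted p under 0.05. Ghr, Stat5b, Igf1 and Igfbp2 are red in the first panel, Ghr and Igfbp2 in the middle one, and Ghr, Stat5b, Igf1 and Igfals in the last.

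The feedback inhibitors Socs2 and Cish varied widely within groups, and neither was called in any comparison with all 12 libraries. Both are induced within a short time of a growth hormone pulse. Socs2 (chr10:95383903-95417321) stood at 14.5, 14.9, 5.56 and 6.12 in Het, 5.07, 5.93, 9.60 and 4.35 in KO and 15.8, 3.28, 1.65 and 1.38 CPM in KO_drug. KO_drug 1 was the highest of all 12 libraries and 11.5 times KO_drug 4. The change of Socs2 in KO vs Het was -0.72 (log2, SE 0.64, 95% interval -2.10 to 0.67, adjusted p = 0.397). Between KO_drug and KO it was -0.17 (95% interval -1.57 to 1.23, adjusted p = 0.881), and in KO_drug vs Het it was -0.88 (95% interval -2.29 to 0.52, adjusted p = 0.373). Without KO_drug 1 Socs2 was called lower in both, at -1.56 (adjusted p = 0.0283) and -2.28 (adjusted p = 0.00485).

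Cish (chr9:107296659-107302784) stood at 1.29, 20.5, 10.6 and 2.19 in Het, 2.49, 5.83, 3.39 and 1.35 in KO and 6.86, 7.50, 0.717 and 1.38 CPM in KO_drug. Het 2 was 15.9 times Het 1, the widest within-group span of the 10 genes. The counts behind these levels were 13 to 394 reads per library. The change in KO vs Het was -1.41 (log2, SE 0.84, 95% interval -3.21 to 0.39, adjusted p = 0.197), and in KO_drug vs KO it was 0.34 (95% interval -1.46 to 2.15, adjusted p = 0.811), with a sign that turned with total-count scaling (-0.01). For both genes, changes of several fold lie within these intervals.

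Igf1, the gene of the circulating growth factor itself, fell in both knockout groups (chr10:87858265-87937047). Its level was 970.1, 698, 706 and 762 in Het, 385, 331, 447 and 454 in KO and 284, 519, 259.9 and 293 CPM in KO_drug. No library of either knockout group reached a Het library, and KO_drug 2 stood above all KO libraries while the other 3 KO_drug libraries stood below them. Igf1 fell 1.94-fold in KO vs Het (log2 -0.96, SE 0.22, adjusted p = 0.00387) and 2.31-fold in KO_drug vs Het (log2 -1.21, SE 0.22, adjusted p = 0.00165). With total-count scaling the first was -0.46 (adjusted p = 0.111), while the second was called under every alternative, from -1.49 to -1.05. KO_drug and KO differed by -0.25 (95% interval -0.72 to 0.22, adjusted p = 0.443). On the deposited FPKM (log2 of FPKM + 0.1, limma) this difference was -0.66 (adjusted p = 0.039). Ghr and Igf1 thus had estimates of opposite sign in KO_drug vs KO, at 0.64 and -0.25, and the difference between the genes was not tested.

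Igfals, the gene of the acid-labile subunit made by hepatocytes (chr17:24877844-24882011), fell in KO_drug vs Het. It stood at 50.0, 108, 113 and 79.9 in Het, 41.1, 27.7, 75.7 and 55.2 in KO and 24.8, 60.7, 18.3 and 19.2 CPM in KO_drug. KO_drug 2 lay above Het 1, and the other 3 KO_drug libraries lay below every library of the other groups. The fall was 2.85-fold (log2 -1.51, SE 0.41, adjusted p = 0.0184), and it lost its call without KO_drug 1, KO_drug 3 or KO_drug 4 (adjusted p 0.052 to 0.0573). In KO vs Het the change was -0.81 (95% interval -1.68 to 0.06, adjusted p = 0.124), and it was called without KO 5 and KO 6 (-1.41, adjusted p = 0.0461) and without KO_drug 2 (-0.81, adjusted p = 0.0461). Without KO_drug 2 the change in KO_drug vs KO went from -0.70 (adjusted p = 0.242) to -1.26 (adjusted p = 0.0276).

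Igfbp2, the gene of an IGF carrier abundant in liver, had the largest estimates of the 10 genes in KO vs Het and in KO_drug vs KO (chr1:72824480-72852474). Its level was 267, 329.6, 665 and 358 in Het, 72.6, 47.6, 110.0 and 93.9 in KO and 691, 513, 593 and 583 CPM in KO_drug. All KO libraries lay below all libraries of both other groups, and Het 3 lay within the range of KO_drug. Igfbp2 fell 5-fold in KO vs Het (log2 -2.32, SE 0.30, 95% interval -2.97 to -1.67, adjusted p = 8.75e-05) and rose 7.34-fold in KO_drug vs KO (log2 2.88, SE 0.31, 95% interval 2.21 to 3.54, adjusted p = 0.000291). Both calls held under every alternative, from -2.82 to -1.74 and from 2.55 to 3.35. In KO_drug vs Het the change was 0.56 (95% interval -0.07 to 1.17, adjusted p = 0.196), and without Het 3 it was 0.90 (adjusted p = 0.0255). On FPKM + 0.1 it was 0.82 (adjusted p = 0.037).

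Igfbp1, the gene of a carrier that rises on fasting and falls with insulin (chr11:7197787-7202546), was not called in any comparison. It stood at 87.2, 103, 48.9 and 41.3 in Het, 75.4, 197, 102 and 205 in KO and 122, 25.2, 206 and 56.5 CPM in KO_drug. KO 4 and KO 6 were above all Het libraries, and KO_drug spanned 8.16-fold from its lowest to its highest library. The change in KO vs Het was 1.04 (log2, SE 0.54, 95% interval -0.12 to 2.20, adjusted p = 0.138), and with total-count scaling it was called at 1.56 (adjusted p = 0.0237). In KO_drug vs KO it was -0.50 (95% interval -1.65 to 0.65, adjusted p = 0.543).

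Within each library, Igfbp2 FPKM over Igfbp1 FPKM was 3.52 to 15.6 in Het, 0.278 to 1.23 in KO and 3.31 to 23.4 in KO_drug. The KO range lay below both others. The ratio of Ghr FPKM to Jak2 FPKM was 30.3 to 39.5 in Het, 7.33 to 19.3 in KO and 18.3 to 35.8 in KO_drug, and the ratio of Igf1 FPKM to Igfals FPKM was 1.86 to 5.79, 1.76 to 3.57 and 2.56 to 4.58. The first of these was lower in all KO than in all Het libraries, while the second overlapped between all groups.

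**Figure D3:**
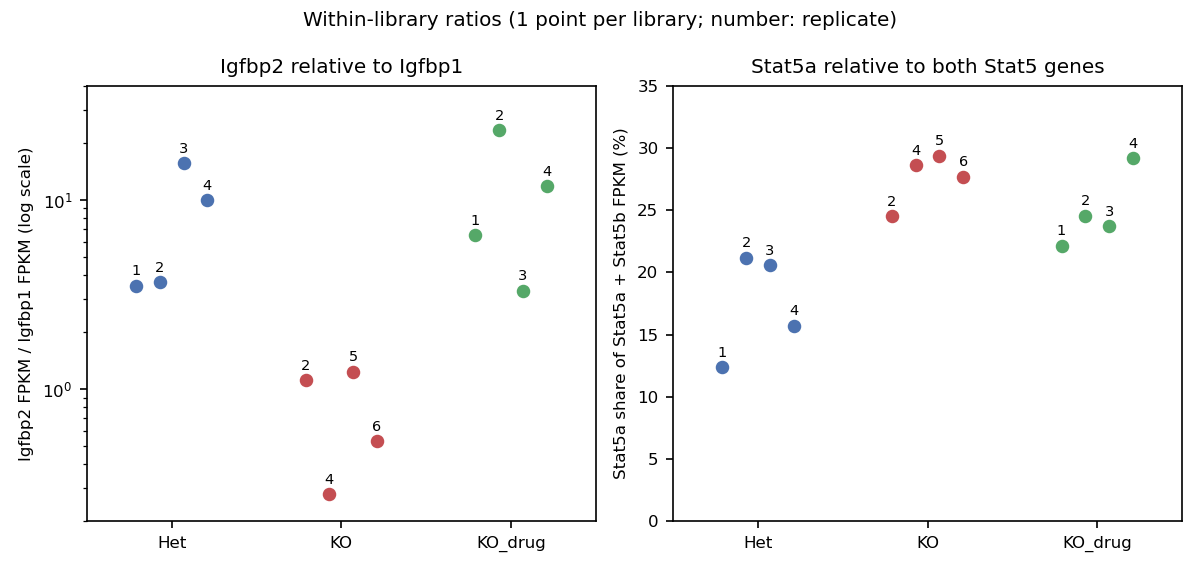
Left, Igfbp2 FPKM over Igfbp1 FPKM (log scale); right, share of Stat5a in the FPKM of Stat5a plus Stat5b (percent), in each of the 12 libraries by group (x axis), 1 point per library with its replicate number. The 4 KO libraries lie between 0.278 and 1.23 on the left, below all others, and the 4 Het libraries lie at or below 21.2% on the right, below all others.

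The IGF carriers were then compared as a pool on the deposited FPKM, which is per length. Summed over Igfbp1 to Igfbp7 and Igfals, the pool was 683 ± 79.9 FPKM in Het, 621 ± 73.4 in KO and 683 ± 40.2 in KO_drug (mean ± SD, n = 4 each). On this scale its makeup differed between the groups more than its sum. The sums depend on the scaling of libraries, while shares within a library do not. The median log2 change of all genes in KO vs Het was 0.02 with TMM and 0.53 on FPKM + 0.1. Near-equal sums on FPKM thus do not show that the pool was level on the TMM scale. Igfbp2 held 29.4 ± 7.18% of the pool in Het, 9.80 ± 3.32% in KO and 50.7 ± 6.21% in KO_drug, with no overlap between any pair of groups. Igfbp1 held 4.78 ± 2.40%, 14.8 ± 5.49% and 7.60 ± 5.93% in the same order, and Igfals 4.07 ± 1.02%, 3.79 ± 1.61% and 1.63 ± 1.05%. Igfbp4, an IGF carrier that held the largest share in Het and KO, had 54.6 ± 4.25%, 55.8 ± 4.58% and 33.6 ± 9.73%, and Igfbp7, an IGFBP-related protein of vessel walls, 6.11 ± 1.14%, 13.2 ± 3.93% and 5.30 ± 0.498%. Shares of a pool are tied to each other, since a rise in 1 lowers the rest.

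**Figure D4:**
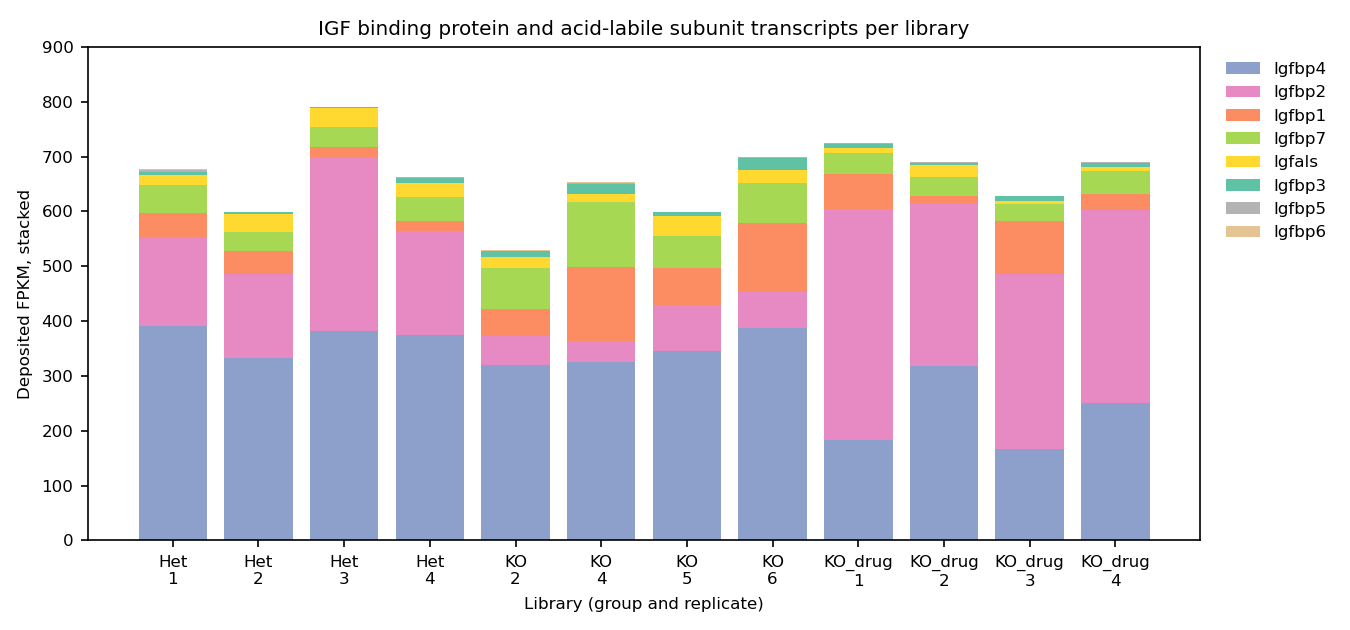
Deposited FPKM (y axis, from 0) of Igfbp1 to Igfbp7 and Igfals stacked for each of the 12 libraries (x axis). Igfbp2 takes 23.7 to 39.7% of the stack in Het, 5.77 to 13.9% in KO and 43.0 to 58.2% in KO_drug.

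Ordered by FPKM within the groups, Igfbp2 (204 ± 75.0) and Ghr (168 ± 29.4) were the highest of the 10 genes in Het, followed by Igf1 (76.9 ± 22.4), Igfbp1 (31.7 ± 14.0), Igfals (27.6 ± 6.54), Stat5b (9.73 ± 1.28), Jak2 (4.92 ± 0.839), Socs2 (3.21 ± 1.73), Stat5a (2.08 ± 0.649) and Cish (1.81 ± 1.80; mean ± SD, n = 4). Neighbours in this order overlapped except at 4 steps, between Ghr and Igf1, Igf1 and Igfbp1, Igfals and Stat5b, and Stat5b and Jak2. In KO the highest were Ghr (96.0 ± 20.8), Igfbp1 (94.3 ± 43.0), Igfbp2 (60.1 ± 19.3) and Igf1 (56.3 ± 6.38), which overlapped along this order. In KO_drug they were Igfbp2 (347 ± 54.7), Ghr (116 ± 25.0), Igfbp1 (50.9 ± 37.2) and Igf1 (37.1 ± 13.3). Of these, Igfbp2 stood above Ghr in every library.

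Since hepatocyte markers were also lower in KO, each member was set against the mean log2 level of the 15 hepatocyte markers of the same library, a difference that does not depend on the scaling of libraries. It was chosen after the values had been seen and carries no test here. The markers themselves had a median log2 change of -0.89 in KO vs Het and 0.59 in KO_drug vs KO. A gene that is level with TMM therefore lies above 0 in the first comparison and below 0 in the second. With TMM, Stat5a changed by 0.14 in KO vs Het, and Stat5b by -0.04 in KO_drug vs KO. The share of all genes without overlap on this scale was not computed. On this scale Igf1 differed between KO and Het by -0.07, Stat5b by 0.22 and Igfals by 0.05, all with overlapping groups. Ghr was lower by 0.59 and Igfbp2 by 1.42 in KO than in Het (differences of -0.59 and -1.42), and Igfbp1 was higher by 1.91 and Stat5a by 1.10, with no overlap in these 4 genes. In KO_drug vs KO, Igfbp2 was higher by 2.43, while Igf1 (-0.80), Stat5a (-0.75) and Stat5b (-0.54) were lower, with no overlap. Ghr then differed between KO_drug and KO by 0.12, with overlapping groups. The part of the hepatocyte markers in the member changes was not tested beyond these values.

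The other genes of the pathway were read from lists of its receptors, inhibitors, carriers and transcription factors. The counts stand against 23.0% of all genes called higher and 17.7% lower in KO vs Het. With total-count scaling these shares were 51.6% and 3.44%, and without KO 5 and KO 6 they were 19.5% and 15.6%. In KO_drug vs KO 8.80% were called higher and 11.0% lower. Of 17 receptors and kinases near the growth hormone receptor, 4 rose and 2 fell in KO vs Het (median 0.10), and 0 rose and 3 fell in KO_drug vs KO (median -0.22). Src, a kinase that can also be activated by the receptor, rose from 2.04 to 18.5 CPM in KO (log2 3.18, adjusted p = 5.87e-07), without overlap. Egfr, the epidermal growth factor receptor gene (log2 -1.52, adjusted p = 0.00951), and the insulin receptor gene Insr (-0.75, adjusted p = 0.0122) fell. With total-count scaling 10 rose and 1 fell, and Insr was not called (-0.22, adjusted p = 0.365). Without KO 5 and KO 6, Egfr lost its call (adjusted p = 0.079).

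Of 14 further inhibitors of the receptor's signal, 13 were tested, and 3 rose and 2 fell in KO vs Het (median 0.04). Sirpa, a membrane protein that recruits SHP phosphatases and is abundant on macrophages, rose 4.44-fold (adjusted p = 0.00275) and fell 4.53-fold in KO_drug vs KO (adjusted p = 0.00697). Ptpn6, which encodes the phosphatase SHP-1, rose 2.54-fold (adjusted p = 0.000244). Socs4 fell (log2 -0.93, adjusted p = 0.00141; -0.44 with total-count scaling, adjusted p = 0.122). Socs7 fell (-0.39, adjusted p = 0.0452), turned to 0.13 with total-count scaling and lost its call without Het 1, 3 or 4, without KO 4, 5 or 6 and without KO_drug 3 (adjusted p 0.053 to 0.127), as well as without KO 5 and KO 6 together (adjusted p = 0.21). Sirpa and Ptpn6 moved together with the macrophage marker sums given above, and the part of those cells in these changes was not tested. With total-count scaling 8 of the 13 rose and 0 fell, where 51.6% of all genes were called higher and 3.44% lower.

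Among the other IGF genes, 12 were listed and 8 tested, of which 4 rose and 1 fell in KO vs Het (median 0.25; 4 and 0 with total-count scaling). Igf2, the gene of the fetal IGF, stood at 0.265 to 1.29 in Het, 1.29, 4.15, 22.6 and 17.0 in KO and 0.313 to 0.808 CPM in KO_drug. KO 5 and KO 6, the libraries with Xist, were the highest, and KO 2 stood at the top of the Het range. Igf2 rose in KO vs Het (log2 4.14, SE 0.80, adjusted p = 0.00134) and fell in KO_drug vs KO (log2 -4.56, SE 0.83, adjusted p = 0.00332), and limma voom with sample weights called neither (adjusted p = 0.0506 and 0.0909). Igfbp3, the main circulating carrier, which liver makes largely in non-parenchymal cells, rose in KO (log2 1.10, adjusted p = 0.0433), and its call was lost without Het 1, 2 or 3, without KO 4 or KO 6, and without KO_drug 1, 3 or 4 (adjusted p 0.0509 to 0.135), as well as without KO 5 and KO 6 together (adjusted p = 0.0694). Igfbp4 fell in KO (log2 -0.64, adjusted p = 0.0185), a call lost with total-count scaling (-0.12, adjusted p = 0.613) and without KO 4 (adjusted p = 0.0536). Igfbp7 fell in KO_drug vs KO (log2 -0.80, adjusted p = 0.00533). Of 12 stellate and myofibroblast markers, 11 were tested, and 5 rose in KO vs Het and 6 fell in KO_drug vs KO. Their summed level was 391.8 to 504.8 CPM in the Het, 547 to 829.7 CPM in the KO and 359.9 to 394.5 CPM in the KO_drug libraries, with Timp1 at 0 in every Het library. Of 10 sinusoidal endothelial markers, 3 rose and then 2 fell in the same comparisons, with overlapping sums (339.8 to 595.8, 469.2 to 568.9 and 412.6 to 528.7 CPM) and none at 0. The part of these cells in the changes of Igfbp3 and Igfbp7 was not tested.

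Of 9 transcription factors known to act at Igf1 or Igfbp1, 0 rose and 5 fell in KO vs Het (median -0.57; 1 rose and 4 fell with total-count scaling). Foxa2 (2.82-fold, adjusted p = 0.00258) and Foxa1 (2.81-fold, adjusted p = 0.000631), pioneer factors of liver genes, were among those that fell, and Foxa1 rose 1.75-fold in KO_drug vs KO (adjusted p = 0.0414). That rise lost its call without Het 2, 3 or 4, without any 1 of the KO libraries and without KO_drug 2, 3 or 4 (adjusted p 0.0514 to 0.129), without KO 5 and KO 6 together (adjusted p = 0.169), with total-count scaling (log2 0.45, adjusted p = 0.216), and on FPKM + 0.1 (0.39, adjusted p = 0.254). Of 5 factors of the sex-dependent growth hormone response, 2 rose and 2 fell in KO. Trim24 rose 4.57-fold (adjusted p = 2.16e-05) and Tox, a female-biased factor, 2.96-fold (adjusted p = 0.00133), while Bcl6, a male-biased repressor that competes with STAT5 (log2 -1.40, adjusted p = 0.0361), and Onecut1 (-0.93, adjusted p = 0.0371) fell. Bcl6 lost its call without Het 4 or without KO 4, 5 or 6, and Onecut1 without Het 1 or 2 or without KO 4, 5 or 6 (adjusted p 0.0514 to 0.155). Neither was called with total-count scaling (-0.89, adjusted p = 0.133, and -0.43, adjusted p = 0.324) or without KO 5 and KO 6 (adjusted p = 0.216 and 0.113). With total-count scaling 3 rose and 0 fell, and without KO 5 and KO 6, 2 rose and 0 fell.

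Among genes whose liver level depends on the sex-specific growth hormone pattern, the male-biased list fell in KO, as did the hepatocyte markers. Of 17 male-biased genes, 16 were tested, and 12 fell and 0 rose in KO vs Het (median -1.38 against 0.02 over all genes). Of all tested genes 17.7% fell, and of the 15 tested hepatocyte markers 11 fell and 0 rose (median -0.89). The part of a wider hepatocyte change in the male-biased list was not tested. Without KO 5 and KO 6, 10 male-biased genes fell and 0 rose (median -1.47), and with total-count scaling 10 fell and 1 rose. Of all genes 15.6% were called lower in the first and 3.44% in the second. Hsd3b5, a steroid reductase gene, stood at 161, 133, 67.1 and 95.9 in Het, 11.6, 3.92, 1.02 and 5.54 in KO and 0.202, 60.9, 5.63 and 5.04 CPM in KO_drug. Slco1a1, an organic anion transporter gene, stood at 771, 1038, 1064 and 883 CPM, 91.9, 55.5, 7.41 and 76.6 CPM, and 31.7, 314, 183 and 139 CPM in the same order. Both were below all Het libraries in all 8 knockout libraries, and KO_drug 2, the KO_drug library with the most Ghr, Igf1 and Igfals, also had the most of both. They fell in KO vs Het 20.6-fold (adjusted p = 0.00688; 0.0526 without KO 5 and KO 6) and 16.2-fold (adjusted p = 0.000813).

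In KO_drug vs KO, 4 male-biased genes rose and 0 fell (median 0.39). Of the 15 tested hepatocyte markers 4 rose and 0 fell there (median 0.59), and of all tested genes 8.80% rose. Elovl3, a fatty acid elongase gene, rose 6.06-fold (adjusted p = 0.0187; 0.0544 without KO_drug 3), and Ugt2b1, a glucuronosyltransferase gene, 3.37-fold (adjusted p = 0.00286), both without overlap. In KO_drug vs Het 9 of the 16 male-biased genes fell and 1 rose (median -0.99), where 8.45% of all genes were called lower and 13.0% higher. The level of single members of the Cyp, Ugt and Sult families carries the limit that reads of near-identical copies may be split between them.

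Of 22 female-biased genes, 16 were tested, and 8 rose and 0 fell in KO vs Het (median 2.75), where 23.0% of all genes were called higher. Of the 22 listed, 5 to 8 were at 0 in each Het library. A gene near 0 in Het can hardly fall against Het, and it can pass the filter through the groups where it is high. The absence of falls is thus partly set by the levels in Het. In KO vs Het the median of this list moved with the libraries that hold Xist: without KO 5 and KO 6, 5 rose and 0 fell, and the median was 0.07. In KO_drug vs Het, which holds neither of these libraries, 5 of the 16 also rose and 0 fell (median 1.56). Of all genes 13.0% were called higher and 8.45% lower there. Cyp3a41a stood at 1.29 and 19.0 CPM in KO 2 and KO 4 and at 1288 and 318 CPM in KO 5 and KO 6, against 0.624 to 2.79 CPM in Het and 1.75 to 3.23 CPM in KO_drug. Sult1e1, the estrogen sulfotransferase gene, differed from it: all 4 KO libraries held 54.3 to 115 CPM and all 4 KO_drug libraries 24.3 to 212 CPM, against 0 to 0.670 CPM in Het (adjusted p = 1.4e-05 in KO vs Het). Of the female-biased genes, 1 rose and 3 fell in KO_drug vs KO (median -0.74), and without KO 5 and KO 6, 1 rose and 0 fell. Prom1 is in this list and also among the cholangiocyte markers.

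**Figure D5:**
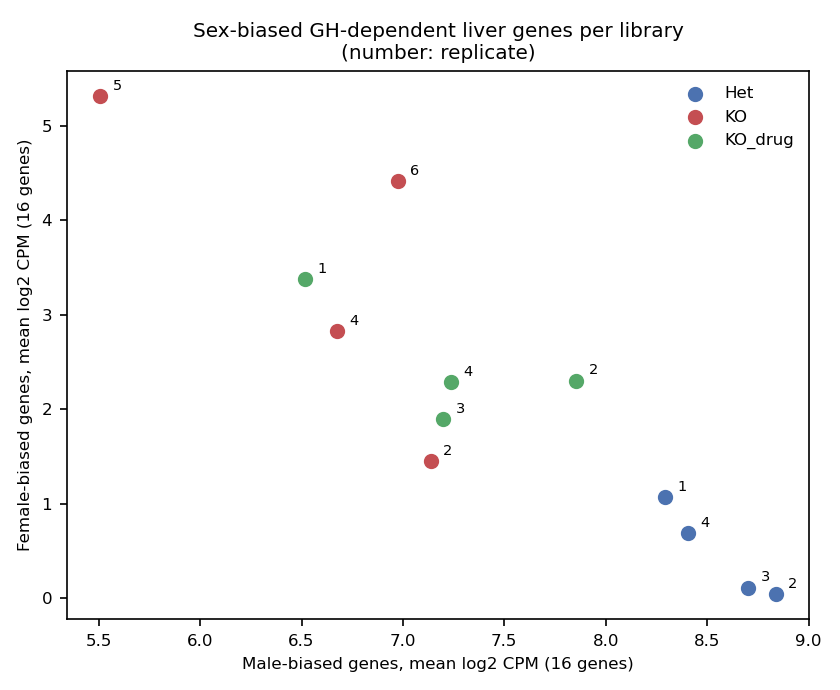
Mean log2 CPM of the 16 tested male-biased genes (x axis) against that of the 16 tested female-biased genes (y axis), 1 point per library with its replicate number, coloured by group. The 4 Het libraries lie at 8.29 to 8.84 on the x axis and 0.04 to 1.07 on the y axis, KO 5 and KO 6 are highest on the y axis, and KO 2 and KO 4 lie beside KO_drug libraries.

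Genes most like 3 members over the 12 libraries were found by the root mean square (rms) difference of log2 CPM, each gene centred on its own mean, among 7708 genes. For Igf1, whose own rms spread was 0.60, they were Mrpl49 (0.24), Depdc5 (0.24) and Slc31a1 (0.25), the last the gene of a copper importer at 152 in Het, 72.9 in KO and 74.1 CPM in KO_drug. For Igfbp1 (own spread 0.93) they were Tubb2a (0.54), Tubb2b (0.57) and Sik1 (0.59). For Socs2 (own spread 1.10) they were Golph3l (0.77), Ilf2 (0.79) and Nans (0.79), so that no gene came closer to Socs2 than 0.77. The 12 points share group means and scaling, and the likeness is a description.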

How the data were processed

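Libraries were stranded (Illumina TruSeq) and made from total RNA of flash-frozen liver, per the labels' protocols. The submitters' processing notes name the genome build mm10 and the tools StringTie 2.1.3b and FastQC 0.11.7; the aligner is not given in the sources used here. For each gene and library, the authors deposited whole-number read counts and, beside them, an FPKM, per the file headers. The table's 3 unnamed columns were not used.

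The 12 libraries entered 1 edgeR 4.0.16 quasi-likelihood fit (R 4.3.3) on the counts, with group means, TMM scaling and filterByExpr (minimum count 10, minimum total 15). The 3 comparisons were contrasts of it, two-sided, with Benjamini-Hochberg adjustment over 13379 genes; calls are at an adjusted p under 0.05. The script was tested on simulated data. CPM is on TMM-scaled library sizes. Counts per library limit precision: Socs2 rested on 26 to 329 reads and Cish on 13 to 394, Ghr on 4714 to 19244. Within-group correlations of log2 CPM were 0.941 to 0.970. The deposited FPKM served for levels between genes, for ratios and, as log2 with 0.1 or 1 added, for limma 3.58.1. DESeq2 1.42.0, other scalings and filters, a replicate block and each library left out were the alternatives. Correlations of deviations from the group means ran from -0.008 to 0.118 between libraries of equal replicate number. Between libraries of unequal number they ran from -0.149 to 0.19. These values cannot decide whether equal numbers mark paired animals, and the labels state no shared origin.

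The members and the gene lists were chosen with earlier results of these data known. Beside the members, the text names up to 2 genes called higher and 2 called lower with the largest change from each list, at 1 CPM or more in the higher group, in KO vs Het and KO_drug vs KO, and the 3 genes most like Igf1, Socs2 and Igfbp1 among genes of at least 10 CPM. From some lists fewer of these are given. Ratios and levels relative to hepatocyte markers were added after the values had been seen. Gene positions, promoters and starts came from RefSeq tables of GRCm38.p6, the assembly named mm10.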

Additional observations from a re-analysis of the deposited data

Results flagged for a closer look

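Among the 30 sets of 4 libraries formed by the 10 genes in the 3 groups, 5 held a library that stood far from the others of its group, by the share of the group's range that its gap to the nearest took. Chance flags about 1 in 20 such sets. Ghr in Het 1 was 992.45 CPM, and the nearest Het library was 822.67 CPM. Stat5a in KO 5 was 16.724 CPM, with the nearest KO library at 12.381 CPM. KO_drug 2 stood apart for Igf1 (519.31 CPM, nearest 293.46 CPM) and for Igfals (60.712 CPM, nearest 24.779 CPM). Socs2 in KO_drug 1 was 15.846 CPM, with the nearest KO_drug library at 3.2831 CPM.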

How the results depend on the processing

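Genes called in KO_drug vs KO numbered 2654, and 4255 with total-count scaling, 4781 and 4923 on log2 FPKM + 0.1 and + 1, and 1741 with the replicate block. The labels do not state that the numbers of this block pair the animals. Leaving out 1 library gave 1632 (without KO_drug 3) to 3066. Members called there numbered 2, and 4 with total-count scaling, 6 on either FPKM scale, 1 with no filter, 1 with only the 2 groups compared, and 1 to 3 with 1 library left out. Of all tested genes 19.8% were called there, 31.8% with total-count scaling, and 35.7% and 36.8% on FPKM + 0.1 and + 1. The share was 13.5% with no filter, 18.5% with only the 2 groups compared, and 11.9 to 22.4% with 1 library left out. With the replicate block 5, 2 and 4 members were called in KO vs Het, KO_drug vs KO and KO_drug vs Het. Of all tested genes 27.6%, 13.0% and 18.8% were called in the same order. The block called Igfals in KO vs Het (-1.57, adjusted p = 0.0179) and Jak2 in KO_drug vs KO (-0.64, adjusted p = 0.0271), and it lost Ghr in KO_drug vs KO (0.87, adjusted p = 0.068). Total-count scaling and FPKM differ from the TMM fit by construction in what is held level; the cause of the other shifts was not tested.

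Signs turned for members that were not called, and for Socs7, which is no member and was called. Jak2 in KO vs Het ran from -0.019 to 0.211 with 1 library left out. Stat5a in KO vs Het was -0.052 without KO 5 and KO 6 and -0.068 to 0.383 with 1 left out; in KO_drug vs Het it was 0.10 with total-count scaling, 0.142 and 0.092 on FPKM + 0.1 and + 1, and -0.32 to 0.13 with 1 left out. Stat5b in KO_drug vs KO was 0.041 without KO 5 and KO 6 and -0.11 to 0.04 with 1 left out. Socs2 in KO_drug vs KO was 0.054 without KO 5 and KO 6 and -1.56 to 0.16 with 1 left out. Cish in KO_drug vs KO was -0.012 with total-count scaling, -0.348 and -0.091 on FPKM + 0.1 and + 1, -0.51 with the replicate block, -0.28 with voom weights and -0.11 to 0.76 with 1 left out. Igfbp1 in KO_drug vs Het was -0.051 to 0.867 with 1 left out. Socs7 in KO vs Het was 0.13 with total-count scaling, 0.127 and 0.086 on FPKM + 0.1 and + 1, and -0.51 to -0.30 with 1 left out. Of all member values under alternatives, 606 kept direction and side of the threshold, 26 lost a call, 35 gained one and 23 turned.

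Every group held 4 libraries, and sex, feeding and time of day are not in the labels. Cish and Socs2 had the lowest read counts of the members, down to 13 and 26 in a library, which limits detection.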

Other observations

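Cd36, a fatty acid transporter gene that growth hormone signalling represses, rose in KO and stood higher again in KO_drug. It was 27.4 to 42.5 CPM in Het, 141 to 223 CPM in KO and 269 to 416 CPM in KO_drug, with no overlap between the groups. It rose 5.03-fold in KO vs Het (adjusted p = 2.89e-06) and 1.83-fold in KO_drug vs KO (adjusted p = 0.0072; 0.0507 with total-count scaling). It was the only called gene of the 4 growth hormone-repressed lipid genes in those 2 comparisons, where the list medians were -0.04 and 0.56. The part of growth hormone signalling or of the agonist in the changes of Cd36 was not tested.

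Of 8 inflammatory cytokines and their liver receptors, 6 were tested, and 2 rose and 1 fell in KO vs Het. Of all tested genes 23.0% were called higher there and 17.7% lower. Il1b rose 6.11-fold (adjusted p = 0.000199) and fell 4.39-fold in KO_drug vs KO (adjusted p = 0.00267). Tnfrsf1a, a tumour necrosis factor receptor gene, rose 1.72-fold in KO (adjusted p = 0.000359), while Il1r1 fell 2.26-fold (adjusted p = 0.0272). The fall of Il1r1 lost its call with total-count scaling (log2 -0.66, adjusted p = 0.158), on FPKM + 0.1 (-0.52, adjusted p = 0.258), without KO 5 and KO 6 together (adjusted p = 0.1), without Het 4 (0.115), without KO 2 (0.0505) and without KO 5 (0.0702). Beside Il1b, 14 of 16 macrophage and Kupffer cell markers rose in KO vs Het and 11 fell in KO_drug vs KO. Of 5 tested neutrophil markers (6 were listed), 5 rose and then 2 fell, with sums of 2.434 to 11.17 CPM in Het, 15.88 to 93.02 CPM in KO and 10.92 to 35.02 CPM in KO_drug, and Ly6g was at 0 in every Het and KO_drug library. Mmp8, another of these markers, was at 0 in at least 1 Het library, which left little room for a fall. Of all tested genes 8.80% were called higher and 11.0% lower in KO_drug vs KO. With total-count scaling 51.6% of all genes were called higher in KO vs Het, and the marker counts here are with TMM scaling only. The part of macrophages and neutrophils in the change of Il1b was not tested.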
